A study of Mus musculus with 6 samples.

Results

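The leukocyte integrins and their partner Icam1 were followed here as 9 genes, found by symbol in the 6 expression tables. They were Itgam, Itgb2, Itgb2l, Itgal, Itgax, Itga4, Itgb1, Itgb7 and Icam1, out of 23284 gene symbols in all, and each had a value in every library. The marrow came from C57BL/6 mice aged 12 weeks that were Diap1 -/- (KO), Diap1 +/- (Het) or wild type (WT). Diap1 encodes the formin mDia1, which nucleates and elongates unbranched actin filaments. Per the labels' protocols, 4 mice of a genotype were pooled, and magnetic beads took out the cells bearing both Gr1 and Mac1. What was left was depleted to uncommitted progenitors (Lin-), so both fractions of a genotype came from the same mice. Each of the 6 groups was 1 library of 1 pool, and no other treatment or allele is named in the labels.

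Integrins are pairs of an alpha and a beta chain that hold cells to each other and to matrix, and whose extracellular grip is switched on from inside the cell and coupled to actin. The Itgb2 chain (CD18) pairs with Itgam (CD11b) to form Mac1, the complement receptor of neutrophils and monocytes, with Itgal to form LFA-1, and with Itgax (CD11c). Icam1 is a ligand of LFA-1 and Mac1. The Itga4 chain pairs with Itgb1 to form VLA-4, which binds Vcam1 and fibronectin and helps to keep progenitors in the marrow, and with Itgb7 to form the receptor for the mucosal addressin. Itgb2l is a relative of Itgb2 described in mouse neutrophils. Since Mac1 was a sorting antigen, the difference of Itgam between fractions is described with no test.

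The loci on mm10 place 3 of the alpha genes side by side. Itgam lay at chr7:128062640-128118491, followed after 11076 bp by Itgax at chr7:128129568-128150657, and Itgax was followed after 23288 bp by Itgad, another alpha partner of Itgb2. Itgal lay on the same chromosome, at chr7:127296260-127335137. Itgb2 lay at chr10:77530348-77565674, Itgb2l at chr16:96422298-96443614, Itgb1 at chr8:128685654-128733579 and Itgb7 at chr15:102215995-102231935. Itga4, at chr2:79255426-79333114, overlapped the end of Cerkl by 624 bp. Cerkl had 2.12 to 4.62 FPKM over the 6 libraries, and whether fragments were counted by strand is not given in the sources used here. Icam1, at chr9:21015960-21028796, ended 576 bp before Icam4. No run of 30 bases was shared by the transcripts of Itgb2 and Itgb2l, and among all pairs of members the only shared runs of that length were 3 between Itgam and Icam1.

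The 250 bases before the gene start are shown for the genes whose levels lay farthest apart in opposite directions between the fractions, Itgam and Itgb2l on one side and Itga4 and Itgb1 on the other. The sequences are from RefSeq on GRCm38.p6, for 7 of the 9 genes, Itgb2 and Itgal being the others. They read 5′ to 3′ on the strand of the gene, with capitals at each match to GAGGAA or its reverse complement TTCCTC, the core letters of sites bound by PU.1, a transcription factor of myeloid cells. The positions are chr7:128062390-128062639 on the plus strand for Itgam, chr16:96443615-96443864 on the minus strand for Itgb2l, chr2:79255176-79255425 on the plus strand for Itga4 and chr8:128685404-128685653 on the plus strand for Itgb1.
Itgam: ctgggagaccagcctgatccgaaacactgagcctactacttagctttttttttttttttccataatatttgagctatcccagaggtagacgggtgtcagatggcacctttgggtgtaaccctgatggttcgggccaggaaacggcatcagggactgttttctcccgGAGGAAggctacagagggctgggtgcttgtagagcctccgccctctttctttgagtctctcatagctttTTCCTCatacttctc
Itgb2l: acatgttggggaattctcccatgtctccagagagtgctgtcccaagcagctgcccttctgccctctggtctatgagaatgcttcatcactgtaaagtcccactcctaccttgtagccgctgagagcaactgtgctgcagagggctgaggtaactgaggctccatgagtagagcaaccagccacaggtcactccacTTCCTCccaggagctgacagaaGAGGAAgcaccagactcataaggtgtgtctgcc
Itga4: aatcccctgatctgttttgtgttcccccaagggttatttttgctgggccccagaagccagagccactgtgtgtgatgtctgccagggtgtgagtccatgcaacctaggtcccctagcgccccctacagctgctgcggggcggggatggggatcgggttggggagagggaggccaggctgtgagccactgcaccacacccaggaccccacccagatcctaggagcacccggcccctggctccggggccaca
Itgb1: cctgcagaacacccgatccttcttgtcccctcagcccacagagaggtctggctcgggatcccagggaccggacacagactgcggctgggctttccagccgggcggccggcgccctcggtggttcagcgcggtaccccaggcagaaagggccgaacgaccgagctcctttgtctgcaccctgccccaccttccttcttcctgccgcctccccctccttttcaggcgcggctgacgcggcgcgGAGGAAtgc
The Itgam window held 2 matches, whose first bases lay 84 and 15 bases before the start, and the Itgb2l window held 2, at 55 and 33 bases. The Itgb1 window held 1 match at 9 bases and the Itga4 window none. Of 32851 windows of the same length, 23.3% held a match and 3.54% held 2 or more. Of the 7 windows of the members, 3 held a match and 2 of these held 2. The letters were chosen with these sequences in view, and a match is a description of the sequence only. The Itgb1 window had 68.0% G and C with 21 CpG, the Itga4 window 64.0% with 6, the Itgam window 49.6% with 6 and the Itgb2l window 54.4% with 1, against medians of 52.4% and 6 over all windows.

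The values are FPKM, fragment numbers divided by transcript length and by library size, so levels can be set side by side between genes. The half-width of each deposited interval was taken as 2 standard errors, which cover counting error only. The implied number of fragments was 8630000 to 11600000 a library, and 10795 to 11315 loci had at least 1 FPKM. Diap1 had 4.07 FPKM in KO, 34.1 in Het and 57.1 in WT Gr1+Mac1+ cells, and 6.07 in KO, 24.2 in Het and 36.0 in WT Lin- cells, in the order the labels give. The Gr1+Mac1+ libraries had high neutrophil markers (Ngp 13534 to 15593 FPKM) and the Gr1 antigen gene Ly6c2 at 1069 to 1267 FPKM. They also held the monocyte gene Csf1r at 69.3 to 78.3 FPKM. Most markers of the monocyte, B lineage, T and NK cell, eosinophil and dendritic cell lists were higher there than in Lin- cells. The depletion to uncommitted progenitors in part fixed this direction in advance. Those called higher were 9 of 9 monocyte and macrophage, 8 of 8 B lineage, 7 of 9 T and NK cell, 7 of 8 eosinophil, basophil and mast cell and 5 of 7 dendritic cell markers, against 30.4% of all loci (limma, adjusted p under 0.05). Some, such as Pax5 and Adgre1 with means of 0.451 and 0.794 FPKM in Lin- cells, passed the filter on mean level through the Gr1+Mac1+ libraries. The counts are thus a description only. The summed FPKM in Gr1+Mac1+ libraries was 5074 to 6071 for the eosinophil, basophil and mast cell list, 559 to 660 for the monocyte list, 554 to 736 for the dendritic cell list, 268 to 311 for the B lineage list and 48.6 to 57.7 for the T and NK cell list. The part of each lineage in the integrin levels was not tested. The Lin- libraries had the progenitor gene Kit at 66.4 to 84.7 FPKM and the erythroid gene Gata1 at 122.0 to 124.4. They had the platelet gene Pf4 at 147 to 308 and the stromal gene Col1a1 at 139 to 296 FPKM. Not all markers of these lists went that way. In Gr1+Mac1+ cells 2 of 8 erythroid markers were called higher and 5 lower. Of 6 stem and progenitor markers 1 was higher (Ly6a, mean 47.0 against 4.98 FPKM in Lin- cells) and 2 lower. Of 6 platelet markers 0 were higher and 6 lower, and of 5 stromal and endothelial markers 1 and 4. The Het Lin- library stood apart: its 10 neutrophil markers summed to 8004 FPKM, against 67.2 in KO and 50.5 in WT Lin- cells (135858 to 164037 in Gr1+Mac1+ cells). All 10 reached 1 FPKM in Het and 7 of 10 did in KO and in WT Lin- cells, with 0 at 0 FPKM. Log2 ratios between fractions without the Het pool are given for the members tested and for many of the list genes.

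Itgb2, Itgam, Itgb2l and Itgal were the 4 most abundant members in Gr1+Mac1+ cells. Itgam, the sorted antigen's gene, had 293.0 FPKM in KO, 311.2 in Het and 293.2 in WT Gr1+Mac1+ cells, against 1.31 in KO, 16.9 in Het and 0.640 in WT Lin- cells. The KO Lin- value is marked as a failed estimate in the deposited table, with an interval of 0 to 3.92 FPKM, and is the only one of the 54 member values with such a mark. The log2 ratio of Gr1+Mac1+ over Lin- cells, on log2(FPKM + 1) here and throughout, was 6.99 in the KO pool, 4.12 in the Het pool and 7.49 in the WT pool for Itgam. In bulk RNA, fewer cells of a type and less RNA per cell cannot be told apart.

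Itgb2, the shared beta chain, had 357.0 FPKM in KO, 328.8 in Het and 319.3 in WT Gr1+Mac1+ cells, and 8.77 in KO, 27.7 in Het and 8.87 in WT Lin- cells. Every Gr1+Mac1+ library lay above every Lin- library, and within Lin- the Het library was high. Its log2 ratio between fractions was 4.58 ± 0.36 (SE, n = 3 pools; limma, adjusted p = 0.000367). Without the Het pool the log2 ratio was 5.11 (adjusted p = 2.46e-05), without the KO pool 4.27 and without the WT pool 4.36.

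Itgb2l had 194.3 FPKM in KO, 191.8 in Het and 178.1 in WT Gr1+Mac1+ cells. In Lin- cells it had 0.0334 FPKM in KO and 0.0304 in WT, each worth 1 implied fragment, and 10.2 in Het. The gene was thus at the limit of counting in 2 of the 3 Lin- libraries, and at a level above 0.5 of that of Itgb2 in every Gr1+Mac1+ library (0.544 in KO, 0.583 in Het and 0.558 in WT). The log2 ratio between fractions was 6.37 ± 0.76 (SE, n = 3 pools), 7.50 without the Het pool, 5.77 without the KO pool and 5.83 without the WT pool. No p is given, since the gene passed the filter on mean level through the libraries where it is high.

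Itgal, the LFA-1 alpha chain used by most leukocytes, had 84.4 FPKM in KO, 93.7 in Het and 81.5 in WT Gr1+Mac1+ cells, and 10.8 in KO, 13.03 in Het and 9.52 in WT Lin- cells. The gap between fractions was much larger than the spread within either, with a log2 ratio of 2.86 ± 0.07 (SE, n = 3 pools; limma, adjusted p = 0.000109). Itgax, the CD11c chain of dendritic cells and macrophages, was low: 7.75 FPKM in KO, 8.74 in Het and 7.76 in WT Gr1+Mac1+ cells, and 1.22 in KO, 1.0002 in Het and 0.481 in WT Lin- cells. Its log2 ratio was 2.28 ± 0.14 (SE, n = 3 pools), with no p for the same reason. Leaving out the Het pool gave 2.91 for Itgal and 2.27 for Itgax.

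**Figure D1:**
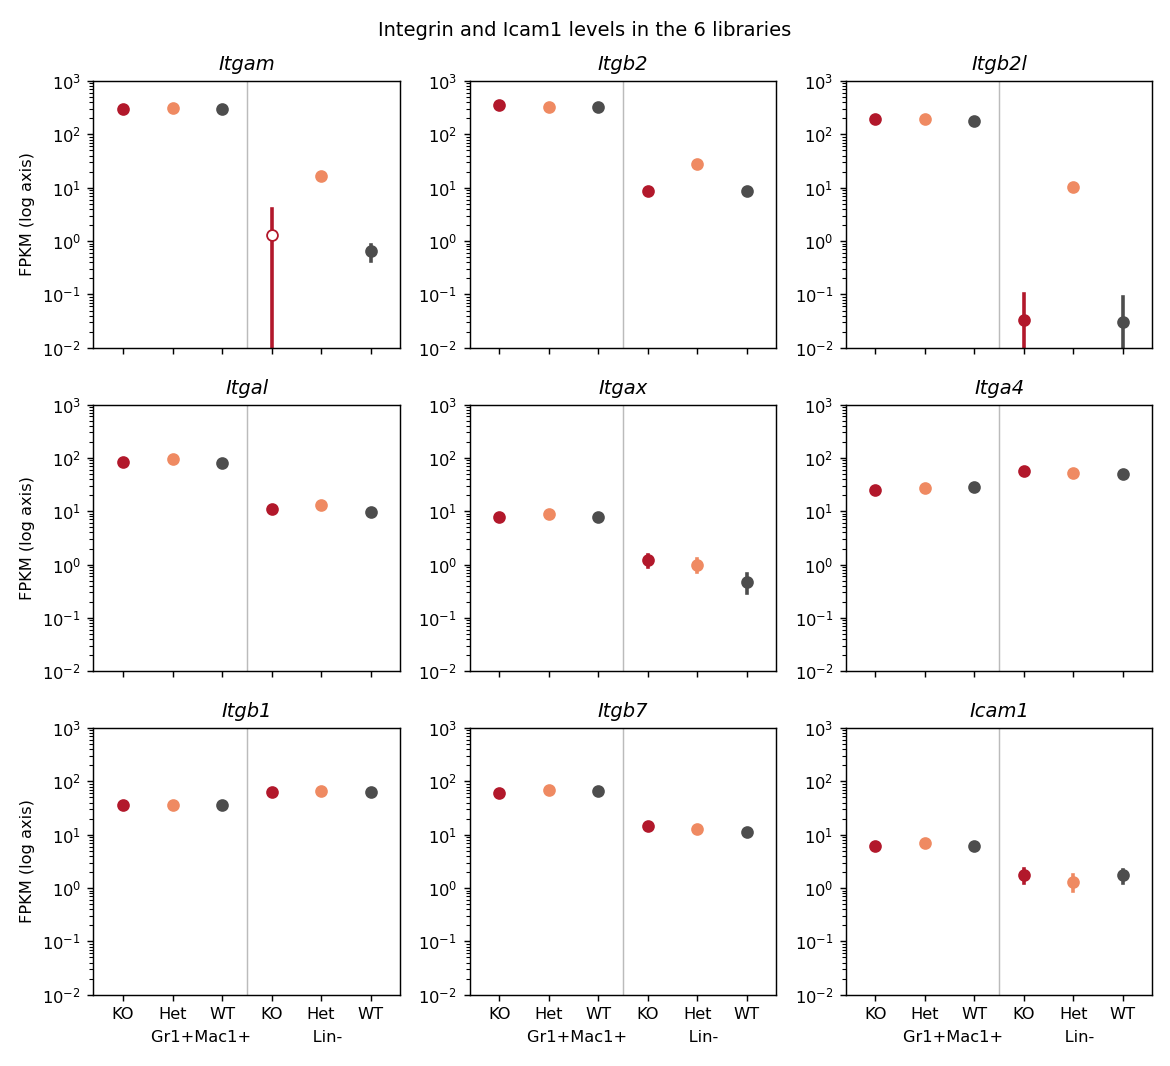
FPKM of the 9 genes (log axis) in KO, Het and WT libraries of Gr1+Mac1+ cells (left of each line) and Lin- cells (right), 1 library a point. Bars are the deposited intervals, bars that reach the bottom go to 0 and the open circle is the failed estimate: Itgam, Itgb2 and Itgb2l stand out in the Het Lin- library at 16.9, 27.7 and 10.2 FPKM, while Itga4 and Itgb1 are the genes with higher levels in Lin- cells.

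The alpha4 and beta1 chains went the other way from the beta2 family, and Itgb7 went with the beta2 family. Itga4 had 24.7 FPKM in KO, 26.7 in Het and 27.9 in WT Gr1+Mac1+ cells, and 56.3 in KO, 52.5 in Het and 50.03 in WT Lin- cells. Its log2 ratio between fractions was -0.98 ± 0.09 (SE, n = 3 pools; limma, adjusted p = 0.000517). Itgb1, the beta chain of VLA-4 and of most matrix receptors, had 36.6 FPKM in KO, 35.5 in Het and 36.1 in WT Gr1+Mac1+ cells, and 61.9 in KO, 67.4 in Het and 62.5 in WT Lin- cells. Over the 3 Gr1+Mac1+ libraries Itgb1 had a coefficient of variation of 1.48%, the smallest of the 9 members in that fraction, and its log2 ratio was -0.81 ± 0.06 (SE, n = 3 pools; limma, adjusted p = 0.00037). Both genes were lower in Gr1+Mac1+ cells in 3 of 3 pools, and without the Het pool the ratios were -0.99 and -0.76.

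Itgb7, the other partner of Itga4, had 60.4 FPKM in KO, 68.1 in Het and 65.1 in WT Gr1+Mac1+ cells, and 14.5 in KO, 12.8 in Het and 11.5 in WT Lin- cells. All Gr1+Mac1+ values lay above all Lin- values, with a log2 ratio of 2.24 ± 0.10 (SE, n = 3 pools; limma, adjusted p = 0.000117). Icam1 had 6.03 FPKM in KO, 7.07 in Het and 6.22 in WT Gr1+Mac1+ cells, and 1.76 in KO, 1.31 in Het and 1.73 in WT Lin- cells. The ligand was thus low in both fractions, at 40.0 to 225 implied fragments a library, with a log2 ratio of 1.52 ± 0.13 (SE, n = 3 pools; limma, adjusted p = 0.000425).

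Without the Het pool the log2 ratio was 2.20 for Itgb7 and 1.38 for Icam1. Of the 8 members tested, 6 were higher and 2 lower in Gr1+Mac1+ cells, against 30.4% higher and 51.6% lower among the 11489 loci tested by limma at an adjusted p under 0.05. Itgb2l and Itgax are 2 of the 6, and the filter fixed their direction. Over genes with a mean of at least 1 FPKM in each fraction in the KO and WT libraries, a restriction chosen after seeing the data, 4 of 6 members were higher (Itgb2, Itgal, Itgb7 and Icam1) and 2 lower, against 26.4% higher and 54.3% lower of 10119 loci. The median log2 ratio was 1.88 over these 6 members and -0.39 over these loci. It was 2.26 over the 8 members (2.24 without the Het pool) and -0.33 over all loci tested. Relative to that all-gene median, the log2 ratios were 4.91 for Itgb2, 6.70 for Itgb2l, 3.19 for Itgal, 2.61 for Itgax, 2.57 for Itgb7, 1.85 for Icam1, -0.64 for Itga4 and -0.48 for Itgb1. The 3 pools differ in genotype, so the spread that the test uses also holds any difference between genotypes. When libraries were rescaled by their median ratio, 53.1% of the calls over all loci were higher in Gr1+Mac1+ cells, against 37.1% as deposited, and the 8 members kept 6 higher and 2 lower.

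**Figure D2:**
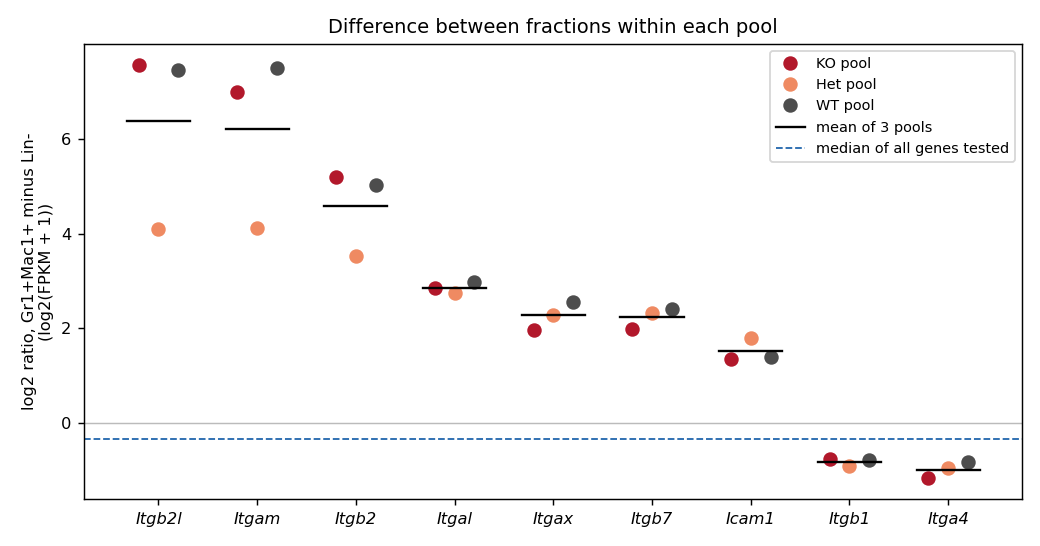
Log2 ratio of Gr1+Mac1+ over Lin- cells (log2(FPKM + 1)) of the 9 genes in the KO, Het and WT pools, with the mean of the 3 pools as a black line and the median of all genes tested, -0.33, as a dashed line. The Het pool lies below the others for Itgb2l, Itgam and Itgb2 (4.10, 4.12 and 3.52), and all pools of Itga4 and Itgb1 lie below the dashed line.

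Within Gr1+Mac1+ cells, the summed level of the 4 alpha chains that pair with Itgb2 (Itgam, Itgal, Itgax and Itgad) was close to that of Itgb2 itself. The alpha-to-Itgb2 ratio was 1.09 in KO, 1.27 in Het and 1.20 in WT Gr1+Mac1+ cells, and 1.54 in KO, 1.13 in Het and 1.21 in WT Lin- cells. Itgam made up 75.4% of the summed alpha FPKM in KO, 74.7% in Het and 76.3% in WT Gr1+Mac1+ cells. In Lin- cells Itgal took the larger share in KO (79.9%) and WT (88.8%), and 41.7% in Het, where Itgam took 54.3%. The Itgam share was 9.66% in KO Lin- cells, resting on the failed estimate, and 5.98% in WT Lin- cells.

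The partners of Itga4 also traded places between fractions. The Itgb7-to-Itgb1 ratio of FPKM was 1.65 in KO, 1.92 in Het and 1.80 in WT Gr1+Mac1+ cells, and 0.234 in KO, 0.190 in Het and 0.183 in WT Lin- cells. The level of Itga4 over that of Itgb1 and Itgb7 together was 0.254 in KO, 0.258 in Het and 0.276 in WT Gr1+Mac1+ cells, against 0.738 in KO, 0.655 in Het and 0.677 in WT Lin- cells. Itgb1 also pairs with other alpha chains, so these are ratios of RNA and not of receptor.

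**Figure D3:**
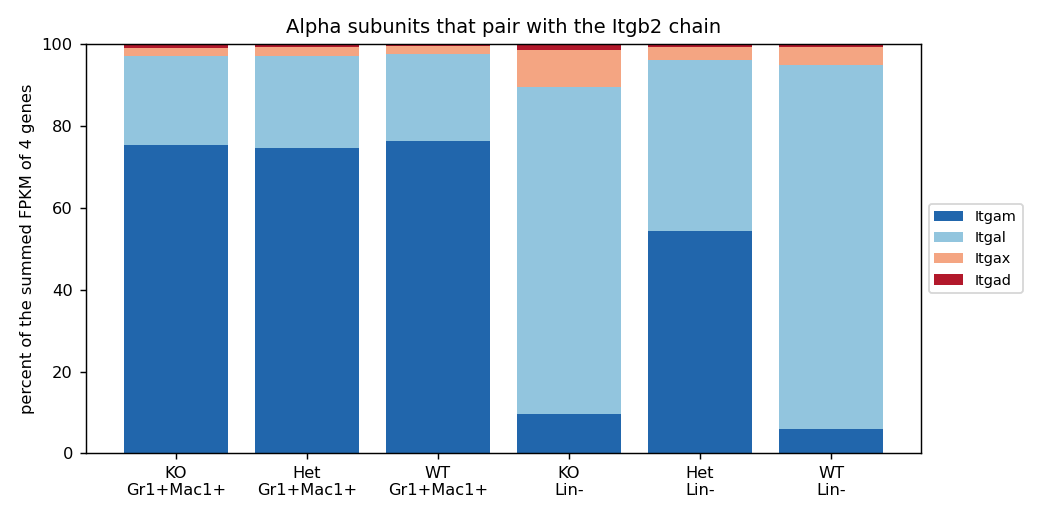
Share of each alpha gene in the summed FPKM of Itgam, Itgal, Itgax and Itgad, in percent, in the KO, Het and WT libraries of Gr1+Mac1+ and Lin- cells. Itgam holds 74.7% to 76.3% in Gr1+Mac1+ cells, and Itgal holds 79.9% in KO and 88.8% in WT Lin- cells but 41.7% in Het Lin- cells.

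Other adhesion genes of these cells, in 5 lists, were set beside the members. Counts of calls are given over genes with a mean of at least 1 FPKM in each fraction, where 26.4% of all loci were higher in Gr1+Mac1+ cells and 54.3% lower. Of the 4 other integrin subunits so tested, 0 were higher and 3 lower (limma, adjusted p under 0.05). Another 4 were called higher over the wider set of loci, among them Itga1, and each fell under that level in the KO and WT Lin- libraries. Itga1, a collagen receptor chain, averaged 5.001 ± 0.71 FPKM in Gr1+Mac1+ and 0.367 ± 0.19 in Lin- cells (SD, n = 3 each), and is described with no p. Itga5, the fibronectin receptor chain, averaged 7.46 ± 0.22 FPKM in Gr1+Mac1+ and 29.3 ± 1.85 in Lin- cells (SD, n = 3 each), with a log2 ratio of -1.84 (limma, adjusted p = 0.00011). Itga2b, the platelet integrin chain, had a log2 ratio of -1.72 (limma, adjusted p = 0.000363), beside platelet markers that summed to 28.5 to 42.1 FPKM in Gr1+Mac1+ and 201 to 420 in Lin- libraries (7 markers, 1 of them at 0 in the WT Gr1+Mac1+ library). Their part in the result was not tested.

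Among 6 ligands so tested, 1 was higher and 2 lower, near the shares over all loci. Fn1, fibronectin, averaged 130.5 ± 15.6 FPKM in Gr1+Mac1+ and 5.36 ± 4.48 in Lin- cells (SD, n = 3 each), and 2.88 in the KO and WT Lin- libraries alone. Its log2 ratio was 4.62 (limma, adjusted p = 0.000488), and 5.09 without the Het pool. Vcam1, the cell-bound ligand of VLA-4, averaged 33.3 ± 6.05 FPKM in Gr1+Mac1+ and 0.998 ± 1.01 in Lin- cells (SD, n = 3 each), and 0.433 in the KO and WT Lin- libraries alone. Its log2 ratio was 4.21, and 4.67 without the Het pool, with no p since its Lin- level was under the filter. Icam4, the erythroid member of the Icam family, had a log2 ratio of -1.59 (limma, adjusted p = 0.000172), beside 8 erythroid markers at 287 to 468 FPKM summed in Gr1+Mac1+ and 744 to 780 in Lin- libraries, whose part was not tested. Icam2, another LFA-1 ligand, averaged 18.6 ± 3.47 FPKM in Gr1+Mac1+ and 19.8 ± 2.44 in Lin- cells (SD, n = 3 each), and did not pass the test (log2 ratio -0.09; limma, adjusted p = 0.572), nor without the Het pool (-0.28, adjusted p = 0.0515).

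Of the genes that switch integrins on from inside, 12 of 15 so tested were higher in Gr1+Mac1+ cells and 2 lower, against 26.4% and 54.3% over all loci. Skap2, an adapter in integrin activation, had a log2 ratio of 2.54, Rasgrp2, which activates Rap1, one of 2.52, and the actin crosslinker Flna, which binds beta tails, one of 2.17 (limma, adjusted p = 0.000111, 0.000109 and 0.000109). Without the Het pool these were 2.65, 2.59 and 2.17. Rap1b, the small GTPase itself, had a log2 ratio of 0.86 (limma, adjusted p = 0.0116), and 0.84 without the WT pool, where it no longer passed (adjusted p = 0.0554). Of the kinases and adhesion-site proteins downstream, 18 of 21 so tested were higher and 3 lower. Fgr, a Src family kinase that signals from beta2 integrins in neutrophils, averaged 101.6 ± 4.39 FPKM in Gr1+Mac1+ and 2.13 ± 3.26 in Lin- cells (SD, n = 3 each), and 0.242 in the KO and WT Lin- libraries alone. It is described with no p. The actin binding proteins Actn1, Vasp and Zyx had log2 ratios of 4.05, 3.02 and 2.71 (limma, adjusted p = 0.000344, 0.000139 and 0.000114), and of 4.46, 3.22 and 2.87 without the Het pool.

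Of the 10 selectin genes, ligands and glycosyltransferases so tested, 6 were higher and 3 lower. Selplg, the selectin ligand PSGL-1, averaged 146.8 ± 5.08 FPKM in Gr1+Mac1+ and 28.4 ± 2.39 in Lin- cells (SD, n = 3 each), with a log2 ratio of 2.33 (limma, adjusted p = 0.000109) and 2.32 without the Het pool. Fut4, a fucosyltransferase for selectin ligands, was low, at 4.39 ± 0.41 FPKM in Gr1+Mac1+ and 0.533 ± 0.14 in Lin- cells (SD, n = 3 each), and is described with no p. The median log2 ratios over the same genes were -1.15 for the other integrins, 0.14 for the ligands, 0.70 for the activators, 1.57 for the kinases and adhesion-site proteins and 0.85 for the selectin genes, against -0.39 over all these loci.

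The comparison of KO with WT asks what loss of mDia1 changes in each fraction. With 1 library a genotype it has no replicate check and no p, and a gene was called when it differed by at least 2-fold on log2(FPKM + 1), had at least 5 FPKM in the higher library and had intervals apart. In Gr1+Mac1+ cells 0 of 9 members were called between KO and WT, where 0.0444% of 11253 loci were called higher and 0.0978% lower. Itgb2 had a log2 ratio of 0.16 ± 0.02 and Itgb2l one of 0.13 ± 0.03 (counting SE), from 357.0 and 194.3 FPKM in KO against 319.3 and 178.1 FPKM in WT, with intervals apart. Itga4 had a log2 ratio of -0.17 ± 0.03 (counting SE), also with intervals apart. In the same comparison 10 of 10 neutrophil markers had log2 ratios above 0 (median 0.10). All 8 erythroid markers had ratios below 0 (median -0.87, summed FPKM 287 in KO and 468 in WT). The monocyte marker Cd14 was called higher in KO, at 131.8 FPKM against 16.9 in WT. It was the only 1 of 9 monocyte and macrophage markers called, and 5 of the 9 had ratios above 0 (median 0.02). Their part in the integrin values was not tested. The intervals lay apart and higher in KO for 5.26% of all loci, and lower for 5.58%. Itgam differed by 0.00 on the log2 scale, and Itgal, Itgax, Itgb1, Itgb7 and Icam1 had ratios of -0.11 to 0.05 with overlapping intervals.

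In Lin- cells 7 members passed the filter, but Itgb2l, at 1 implied fragment in KO and in WT, passed only through the Het library and could not be called. Icam1, among the other 6, was under 5 FPKM in both libraries and could not be called either. Of these 6, 0 were called between KO and WT, where 0.137% of 10938 loci were called higher and 0.0366% lower. Itgam was left out for its failed estimate and Itgax for a mean under 1 FPKM. Itga4 had 56.3 FPKM in KO and 50.03 in WT Lin- cells, a log2 ratio of 0.17 ± 0.02 (counting SE), and Itgb7 had 14.5 FPKM in KO and 11.5 in WT Lin- cells, a log2 ratio of 0.31 ± 0.09. The intervals of both were apart, and both were higher in KO, as were 6.17% of all loci with intervals apart, with 7.39% lower. Itgb2, Itgal, Itgb1 and Icam1 had log2 ratios of -0.02 to 0.17 with overlapping intervals. Itgax had 1.22 FPKM in KO and 0.481 in WT Lin- cells, from 58.0 and 25.0 implied fragments, with intervals apart below the level filter. The median log2 ratio of the members was 0.00 in Gr1+Mac1+ and 0.02 in Lin- cells, against 0.01 and 0.00 over all loci.

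The comparison of Het with WT shares the WT libraries with the one above. In Gr1+Mac1+ cells 0 of 9 members were called between Het and WT, where 0.0355% of loci were called higher and 0.0977% lower. Itgal had 93.7 FPKM in Het and 81.5 in WT Gr1+Mac1+ cells, a log2 ratio of 0.20 ± 0.04 (counting SE), and Itgam and Itgb2l had ratios of 0.09 and 0.11. The intervals were apart for these 3 members, all higher in Het, as for 8.28% of all loci, with 8.5% lower.

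In Lin- cells 3 of the 8 members past the filter were called higher in Het than in WT and 0 lower, where 1.3% of 10944 loci were called higher and 0.064% lower. Icam1, among the 8, was under 5 FPKM in both libraries and could not be called. Itgam had 16.9 FPKM in Het and 0.640 in WT Lin- cells, a log2 ratio of 3.45 ± 0.10 (counting SE). Itgb2l had 10.2 FPKM in Het and 0.0304 in WT Lin- cells, a log2 ratio of 3.45 ± 0.08, and Itgb2 had 27.7 FPKM in Het and 8.87 in WT Lin- cells, a log2 ratio of 1.54 ± 0.09. Itgam and Itgb2l passed the filter only through the Het library, where they are high, so the filter in part fixed their direction. The 3 genes called are those of Mac1 and the neutrophil beta2 relative. Itgal had 13.03 FPKM in Het and 9.52 in WT Lin- cells, a log2 ratio of 0.42 ± 0.09, with intervals apart but under 2-fold. Itgb1 had a ratio of 0.11 with intervals apart, Itga4 one of 0.07 and Itgb7 one of 0.15 with overlapping intervals, and Icam1 one of -0.24 with overlapping intervals. Of the 8 members, 5 had intervals apart and higher in Het and 0 apart and lower, against 8.42% and 6.2% of all loci.

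**Figure D4:**
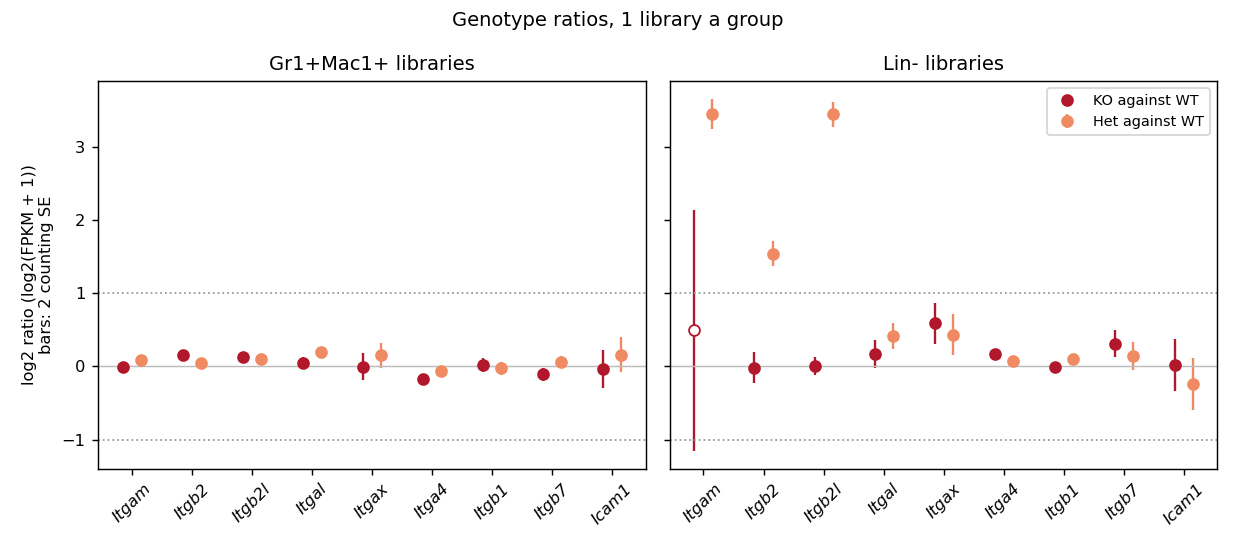
Log2 ratios of KO over WT and Het over WT (log2(FPKM + 1)) of the 9 genes in Gr1+Mac1+ cells (left) and Lin- cells (right), 1 library a group. Bars are 2 counting SE, dotted lines mark 2-fold and the open circle rests on the failed estimate: the points of Itgam, Itgb2 and Itgb2l in Het Lin- cells are the only ones beyond 2-fold, at 3.45, 1.54 and 3.45.

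All 10 neutrophil markers were also called higher in the Het Lin- library than in WT Lin- cells, among them Ngp with 844.7 FPKM in Het, against 5.56 in KO and 4.07 in WT. Mmp8, Mmp9 and Cd177 were under 1 FPKM in KO and WT Lin- cells. They passed the filter only through the Het library, so the filter in part fixed their direction. The excess of a gene in Het Lin- over WT Lin- cells was expressed as a percent of its level in Het Gr1+Mac1+ cells. The excess was 5.24% for Itgam, 5.74% for Itgb2 and 5.32% for Itgb2l, with counting SE of 0.20, 0.31 and 0.30, and 5.21% to 6.78% for the 10 neutrophil markers, with a median of 5.73%. The excess was 2.33% to 8.41% for 9 monocyte and macrophage markers (median 4.59%), and -6.90% to 26.0% for 8 eosinophil, basophil and mast cell markers (median 3.83%). The 3 members lay within all of these ranges, and just above the range of 8 B lineage markers (-8.26% to 5.20%, median 2.17%). Itgal had 3.76% ± 0.80 and Itgax 5.94% ± 1.96, and Itgb7 had 1.95% ± 1.26 (counting SE). Genes of other marker lists were called higher in Het too: Ly6c1 and Ly6c2 of the Gr1 antigens, Cd68 and Ccr2 of the monocyte list, H2-Aa of the dendritic cell list, Cd79a of the B lineage list and Col1a1 of the stromal list. The eosinophil genes Prg2 and Epx had 262.4 and 17.6 FPKM in Het, against 10.1 and 0.709 in WT Lin- cells. The 8 eosinophil, basophil and mast cell markers summed to 334.3 FPKM in Het, against 74.5 in KO and 57.8 in WT Lin- cells, with 0 of them at 0 FPKM. The part of the cells behind these markers in the integrin values was not tested. The same excess in KO Lin- cells was 0.21% for Itgam, on its failed estimate, -0.03% for Itgb2 and 0.00% for Itgb2l. The other members lay between -1.51% (Itgb1) and 23.6% (Itga4).

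**Figure D5:**
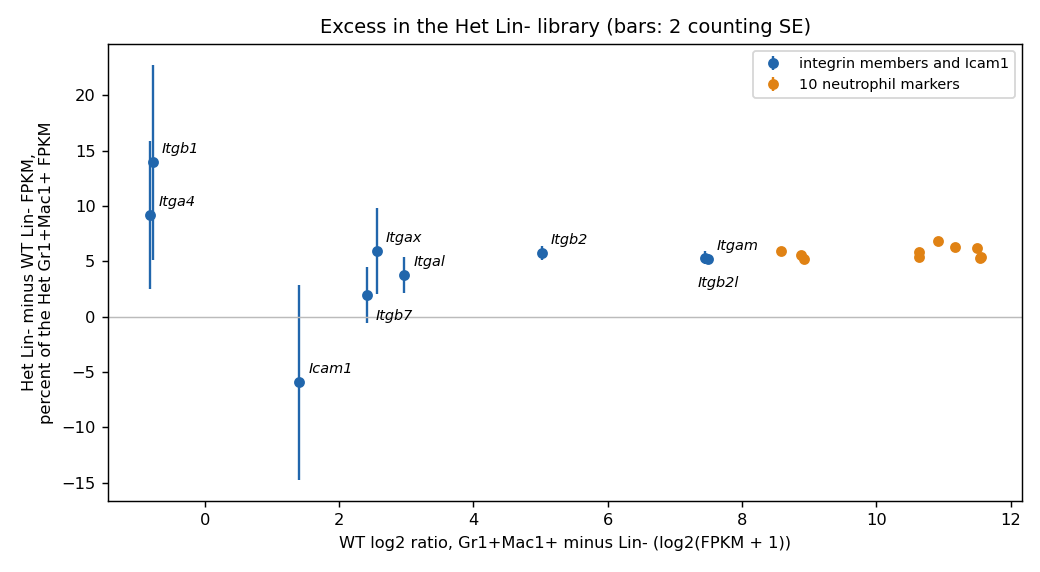
Excess of Het Lin- over WT Lin- FPKM as a percent of the Het Gr1+Mac1+ FPKM, plotted against the WT log2 ratio of Gr1+Mac1+ over Lin- cells, for the members (blue) and 10 neutrophil markers (orange), with bars of 2 counting SE. Itgam, Itgb2 and Itgb2l lie at 5.24% to 5.74%, beside neutrophil markers at 5.21% to 6.78%, and members with higher Lin- levels have wide bars.

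KO compared with Het shares the KO and Het libraries with the comparisons above. In Gr1+Mac1+ cells 0 of 9 members were called, where 0.0622% of loci were called higher in KO and 0.0711% lower. Itgb2 had a log2 ratio of 0.12, and Itgal, Itgb7, Itga4 and Itgam had ratios of -0.15, -0.17, -0.11 and -0.09, all with intervals apart. Of all loci, 9.48% had intervals apart and higher in KO and 9.15% apart and lower. In Lin- cells 2 of the 7 members past the filter (Itgb2l through the Het library alone) were called lower in KO than in Het and 0 higher, where 1.16% of 10935 loci were called lower and 0.0914% higher. They were Itgb2, with 8.77 FPKM in KO and 27.7 in Het Lin- cells (log2 ratio -1.56 ± 0.09, counting SE), and Itgb2l, with 0.0334 FPKM in KO and 10.2 in Het Lin- cells (log2 ratio -3.44 ± 0.09). Icam1, among the 7, was under 5 FPKM in both libraries and could not be called. Itga4 was apart and higher in KO (0.10) and Itgb1 apart and lower (-0.12), under 2-fold. Of all loci, 3.58% were apart and higher and 7.41% apart and lower. Both calls rest on the Het Lin- library, and neither gene was called between KO and WT.

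In the 5 other adhesion lists 0 genes were called between genotypes in Gr1+Mac1+ cells, in any of the 3 comparisons, and 0 between KO and WT in Lin- cells. Past the filter were 9 other integrins, 8 ligands, 16 activators, 22 kinases and adhesion-site proteins and 11 selectin genes in Gr1+Mac1+ cells. In Lin- cells these were 6, 6, 14, 24 and 10. Over all loci 0.0355% to 0.0978% were called each way in Gr1+Mac1+ cells. Between KO and WT Lin- cells the shares were 0.137% higher and 0.0366% lower, so 0 calls lay near the shares over all loci. Between Het and WT Lin- cells 1 of 6 ligands and 3 of 24 kinases and adhesion-site proteins were called higher in Het, and 0 genes of the other lists. Over all loci 1.3% were called higher and 0.064% lower. Of the genes called, 3 are given here. Fn1 had 10.3 FPKM in Het and 1.59 in WT Lin- cells. Fgr had 5.89 FPKM in Het and 0.304 in WT Lin- cells, and Actn1 had 10.4 in Het and 4.37 in WT. Fgr, at 0.180 FPKM in KO Lin- cells, passed the filter only through the Het library, so the filter in part fixed its direction. Between KO and Het Lin- cells 1 of 6 other integrins, 1 of 6 ligands and 3 of 24 kinases and adhesion-site proteins were called lower in KO, against 1.16% of all loci. Among them were the same 3 genes and Itgb3, the platelet beta3 chain, at 10.6 FPKM in KO, 25.7 in Het and 17.3 in WT Lin- cells. The platelet gene Pf4, at 147 FPKM in KO and 308 in Het Lin- cells, was called lower too, and its part in the Itgb3 value was not tested.

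Genes with a profile closest to each member over the 6 libraries were found by the root mean square difference of centred log2(FPKM + 1), among 7861 genes with a mean of at least 5 FPKM. C3, complement component 3, was closest to Itgam, with a difference of 0.036, and averaged 328.5 FPKM in Gr1+Mac1+ and 7.29 in Lin- cells. The Itgam profile includes the failed estimate in KO Lin- cells. Elane, neutrophil elastase, was closest to Itgb2 (0.078) and Cybb, a subunit of the phagocyte oxidase, to Itgb2l (0.11). Selplg was closest to Itgb7 (0.066), Adam15 to Itgal (0.041) and Nlrx1 to Itgax (0.055). Tk1, the thymidine kinase of dividing cells, was next after Zfp219 for Itga4 (0.023 and 0.021), Ube2m was closest to Itgb1 (0.023) and Satb1 to Icam1 (0.034). The 6 libraries form 2 separate fractions, so this likeness is a description and no correlation was computed.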

How the data were processed

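RNA-seq was made from 6 libraries, 1 for each genotype and fraction, of 4 pooled mice each. The authors deposited FPKM per locus, with interval bounds and a quality flag, per the file headers. The submitters' processing notes name mm10, TopHat2 2.0.7 and Cufflinks 2.0.2 without saying what each did or which gene models were used. Because FPKM is relative to the total of a library, very abundant genes lower all others.

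From these values, log2(FPKM + 1) was tested between fractions with limma 3.58.1 (trend, pool as a block; R 4.3.3) over loci with status OK in all libraries and a mean of at least 1 FPKM, with Benjamini-Hochberg adjustment. The block rests on the labels' protocol, since both fractions came from the same mice; correlations of same-pool deviations were -0.01 in KO, -0.06 in Het and 0.10 in WT. With 3 pools, 2 residual degrees of freedom remain, before limma's moderation. The standard error was taken as the half-width of the interval over 2, since low values then gave whole fragments within 0.05 for 60.8% to 63.3% of loci. Genotypes, with 1 library each, were compared by size and intervals only. The script was tested on simulated data.

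The members and gene lists were chosen with earlier results of these data known. Of 177 list symbols, 176 matched. Ly6g of the Gr1 antigen list did not, and Mecom of the stem and progenitor list, with 2 loci, was left out of the counts. Named genes were the members, the 3 with the largest ratio and the 2 most abundant of each list, those past the size rule and, for each member, up to 3 of the closest profiles. Other pseudocounts, filters, rescaling, fits with no block and each pool left out were tried. A few named genes of the lists are not reported here.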

Additional observations from a re-analysis of the deposited data

Results flagged for a closer look

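Of the 9 genes, 2 had intervals apart in opposite directions in the 2 fractions under the same genotype contrast; with 1 library a group the difference was not tested. Of loci past the filter in both fractions, 1.41% had such intervals between KO and WT and 2.41% between KO and Het, against 1 of 7 and 2 of 7 members. Between Het and WT, 2.34% of loci and 0 of 8 members had such intervals. Between KO and WT, the log2 ratio of Itga4 was -0.17 in Gr1+Mac1+ and 0.17 in Lin- cells, a difference of -0.34 ± 0.04 (counting SE), and between KO and Het the difference was -0.21 ± 0.04. Between KO and Het, the log2 ratio of Itgb2 was 0.12 in Gr1+Mac1+ and -1.56 in Lin- cells, a difference of 1.68 ± 0.09 (counting SE), resting on the Het Lin- library, whose neutrophil markers were high. In KO against WT Gr1+Mac1+ cells all 8 erythroid markers had log2 ratios below 0 (median -0.87), and their part in the Itga4 value was not tested.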

How the results depend on the processing

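The 8 members tested between fractions kept their direction and their call under every alternative that tested them. For Itgb2l and Itgax, whose direction the filter on mean level fixed, this is no check. Over all loci, the fit with no replicate block called 3530 higher and 6052 lower, against 3491 and 5931 with the block, and changed no member's call. Rescaling by the median ratio called 4751 higher and 4202 lower; over all genes tested it gave 5 higher and 1 lower among 8 ligands, against 3 and 2 as deposited, and 15 higher and 0 lower among 16 activators, against 13 and 2. Between KO and Het Lin- cells, a mean of at least 5 FPKM in the fraction and a minimum of 3-fold each left 1 member called lower. The same settings left 2 of 3 called higher between Het and WT Lin- cells, without Itgb2l at the mean of 5 and without Itgb2 at 3-fold. Keeping loci with failed or low-data estimates, an alternative chosen after seeing the data, gave 3507 higher and 5957 lower. Between genotypes, precision is limited by 1 library a group: the intervals cover counting error only, and no spread between mice or pools can be had. Depth limits Itgb2l, Itgam, Itgax and Icam1 in Lin- cells.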
